A study of Mus musculus with 5 samples.

Results

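The RING finger ubiquitin ligases of the Rnf and Trim gene series were followed through 5 microarrays of RNA from mouse embryonic stem cells. Members were the genes whose symbol begins with Rnf or Trim and a digit, with Rbbp6, Mdm2 and Cbl added by name. Each gene was read by its brightest probe set that the platform annotation pairs with 1 symbol. A gene was kept where the mean log2 signal over the 5 arrays reached 5.76, the median of all probe-set means. By symbol 142 genes qualified, and 97 of them were kept, of 11502 genes kept in all. The kept members were 62 of 80 Rnf genes, 32 of 59 Trim genes, and Rbbp6, Mdm2 and Cbl. Signal on all 5 arrays thus chose the members, and the 3 genes added by name were chosen with their values in the FLAG:MKRN1 immunoprecipitate already known, so their differences are descriptions.

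Ubiquitin is passed from an activating enzyme (E1) to a conjugating enzyme (E2) and then to a substrate chosen by a ligase (E3). RING ligases fold around zinc, hold the charged E2 and the substrate together, and do not carry ubiquitin themselves, except for the RING-between-RING class, which does. The Trim proteins join the RING to B-box zinc fingers and a coiled coil, whereas Rnf is a catalogue name for RING proteins of many architectures. In embryonic stem cells the series includes known regulators of chromatin, p53 and signalling. MKRN1, the tagged protein of the study, is itself a RING ligase, with zinc fingers of the kind that can bind RNA.

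The arrays profiled RNA immunoprecipitation (RIP), in which a protein is captured from a lysate and the RNA that comes with it is measured. For each of the 5 arrays, inputs and RIPs alike, cDNA was made from 10 ng of RNA. The differences below are therefore in the make-up of that RNA, and do not give the amount captured. The cells were clones of R1, a male mouse embryonic stem cell line of the cross 129X1 x 129S1, that constitutively expressed either a FLAG:MKRN1 fusion or the FLAG:Ctrl construct from pCAGGS, a strong, broadly active promoter. Both were grown with LIF and serum, first on embryonic fibroblast feeders and then on gelatin to remove them, and received no other treatment. FLAG:Ctrl lysate gave an input (Ctrl input) and an anti-FLAG RIP (Ctrl RIP). FLAG:MKRN1 lysate gave an input (MKRN1 input), an anti-FLAG RIP and a RIP with IgG control antibodies (IgG RIP). The number of clones behind each lysate is not given in the sources used here, and endogenous MKRN1 was present in both lysates. Each of the 5 groups was 1 array, so no difference has a replicate check, and no test or error is given. Arrays have no read depth, and their number limits the precision.

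The deposited array medians lay between 5.68 and 5.88. The signal of Mkrn1 was 11.80 in the Ctrl input and 11.71 in the MKRN1 input, so it was not higher in the line labelled as overexpressing it. Whether its probe set reads the transgene transcript is not known, and the anti-FLAG RIP from that line is therefore called the MKRN1-labelled RIP. All 10 embryonic stem cell markers were kept, with array means from 10.5 to 11.1. Of 10 feeder fibroblast markers 6 were kept, with array means from 5.68 to 5.99; Thy1 was the brightest, with a mean of 8.96, while Postn, Dcn and Lum lay below the filter. Of 5 primitive endoderm markers 2 were kept, and of 4 early mesoderm and neural markers on the array 2 were kept. The MKRN1-labelled RIP had the narrowest spread of signal over all probe sets, where the SD was 2.19 and that of the other arrays 2.28 to 2.35. Its correlations with the other arrays, 0.959 to 0.967 across probe sets, were all below those among the other 4 arrays, 0.982 to 0.992.

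The comparison the design implies is the MKRN1-labelled RIP against both control RIPs, Ctrl RIP and IgG RIP, with the MKRN1 input as a further reference. A gene was called lower or higher where the MKRN1-labelled RIP was at least 2-fold (1 on the log2 scale) from both control RIPs and on the same side of its input. All 3 differences use the same MKRN1-labelled array and are not independent of each other. Of the 97 members 4 were called lower, Rbbp6, Cbl, Trim44 and Trim33, which is 4.12%. The background over all kept genes was 5.36%. Rbbp6 and Cbl were added with their values known, so nothing is read from the 4.12%. Of the 94 members chosen by symbol alone 2 were called lower, Trim44 and Trim33, or 2.13%. No member was called higher, against a background of 1.09% of kept genes. None of the 45 genes below the level filter was called in either direction. Calls were rare there for all genes. Without the filter 619 of 19937 genes were called lower and 144 higher, against 617 and 125 of the 11502 kept. Nothing is therefore read from the 45. The median member lay at -0.06 from the Ctrl RIP and at -0.00 from the IgG RIP, beside -0.03 and -0.00 over all kept genes. The medians of the group thus lay close to those of the array as a whole.

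Rbbp6 encodes a RING ligase that binds RB and p53 and is also part of the machinery that cleaves and polyadenylates mRNA 3' ends. Its signal was 11.55 in the Ctrl input, 11.07 in the MKRN1 input, 11.16 in the Ctrl RIP, 11.32 in the IgG RIP and 7.27 in the MKRN1-labelled RIP. The other 4 arrays lay together, and the MKRN1-labelled RIP stood alone below them. Its differences were -3.88 from the Ctrl RIP, -4.05 from the IgG RIP and -3.80 from its input, or 14.8-fold, 16.5-fold and 13.9-fold lower. With the smaller of the differences from the control RIPs taken as each gene's score, Rbbp6 had rank 1 from the bottom of the 11502 kept genes.

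Rbbp6 is represented by 3 probe sets with 1 symbol, and they differ in size but not in direction. The brightest, 10557211, gave the values above. Probe set 10557206 read 7.61 and 7.35 in the Ctrl and MKRN1 inputs, 7.31 and 7.66 in the Ctrl and IgG RIPs, and 5.44 in the MKRN1-labelled RIP, 3.68-fold below the Ctrl RIP. Probe set 10557213 read 9.07 on each of the other 4 arrays and 8.39 in the MKRN1-labelled RIP, 1.61-fold lower. With the median over probe sets in place of the brightest, the score of Rbbp6 was -1.80 and the gene was still called lower. That median was taken on each array separately. It fell on 10557213 on the other 4 arrays and on 10557211 in the MKRN1-labelled RIP. The -1.80 thus sets 1 probe set against another, and nothing is read from that call. Taken alone, 10557213 did not reach 2-fold. Which transcript each probe set reads is not given in the sources used here.

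Cbl, a RING ligase that ubiquitinates activated receptor tyrosine kinases, read 8.25 in the Ctrl input, 7.82 in the MKRN1 input, 7.91 in the Ctrl RIP, 7.64 in the IgG RIP and 6.20 in the MKRN1-labelled RIP. It stood 3.28-fold under the Ctrl RIP and 2.72-fold under the IgG RIP. Its rank by score was 165 from the bottom. Trim44, a Trim-series protein known as an atypical member without a RING, read 9.16 in the Ctrl input, 8.92 in both the MKRN1 input and the Ctrl RIP, 8.52 in the IgG RIP and 7.25 in the MKRN1-labelled RIP. It stood 3.18-fold under the Ctrl RIP and 2.42-fold under the IgG RIP. In both genes the MKRN1-labelled array was again the lowest. The other 4 arrays were spread from 7.64 to 8.25 for Cbl and from 8.52 to 9.16 for Trim44.

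**Figure D1:**
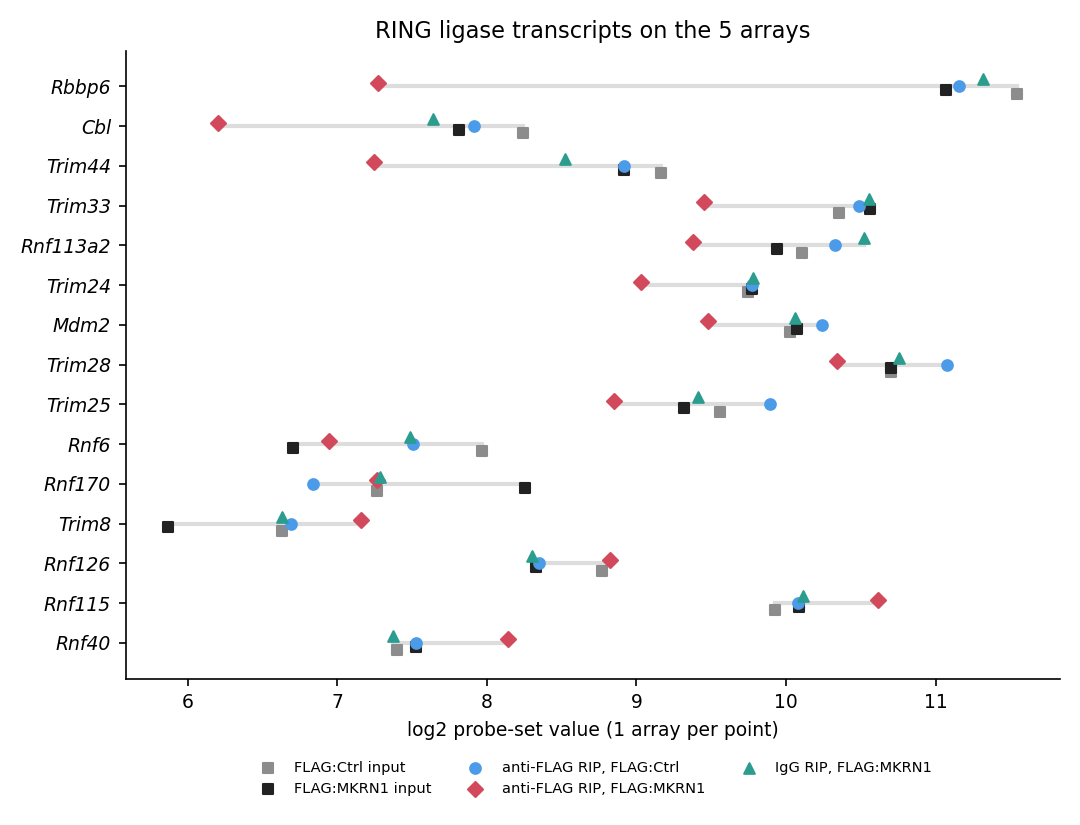
Log2 signal of 15 members on the x axis, 1 point per array with no error bars because each group is 1 array, and grey lines spanning the 5 arrays. Rbbp6 read 7.27 in the MKRN1-labelled RIP and 11.07 to 11.55 elsewhere, whereas Rnf40, Rnf115 and Rnf126 were highest in that RIP.

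Trim33 belongs to the TIF1 group of Trim proteins, nuclear co-regulators of transcription that read histone marks and include Trim24, Trim28 and Trim66. Trim33, which acts on SMAD proteins downstream of TGF-beta and Nodal, read 10.35 and 10.56 in the Ctrl and MKRN1 inputs, 10.49 in the Ctrl RIP, 10.56 in the IgG RIP and 9.45 in the MKRN1-labelled RIP. It was 2.05-fold and 2.15-fold below the control RIPs, just past the threshold. Its call was lost under 3 other scalings, with scores of -0.76 after quantile normalization, -0.69 with the trend on signal level removed and -0.87 with arrays centred on kept genes.

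Trim24, a co-regulator of nuclear receptors, read 9.75 and 9.77 in the inputs, 9.77 and 9.78 in the Ctrl and IgG RIPs and 9.03 in the MKRN1-labelled RIP. Trim28, the KAP1 co-repressor that silences retroelements in embryonic stem cells, read 10.70 in each input, 11.08 in the Ctrl RIP, 10.76 in the IgG RIP and 10.34 in the MKRN1-labelled RIP. All 3 kept TIF1 genes were thus lower in the MKRN1-labelled RIP than on each other array. That RIP was alone the lowest array for 32.6% of all kept genes. The 3 stayed below both control RIPs under all 5 scalings tried. Their median difference from the Ctrl RIP was -0.75, where all kept genes had -0.03. Their input means ran from 9.76 to 10.70, and all kept genes with an input mean of 9 or more had -0.33. The smallest of the 5 sizes was -0.42, with the level trend removed. The score of Trim28 was then -0.10. Trim66, the fourth TIF1 gene, missed the filter narrowly and went the other way. It read 5.71 in each input, 5.52 in the Ctrl RIP, 5.71 in the IgG RIP and 6.12 in the MKRN1-labelled RIP, at 0.60 and 0.41 from the control RIPs.

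Mdm2, the main ligase of p53, read 10.03 in the Ctrl input, 10.08 in the MKRN1 input, 10.24 in the Ctrl RIP, 10.06 in the IgG RIP and 9.48 in the MKRN1-labelled RIP. It was lowest in that RIP, at -0.76 and -0.58 from the control RIPs, and did not reach 2-fold. Of the 3 genes added by name, Rbbp6 and Cbl were called and Mdm2 was not.

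Against each control RIP alone, 5 members were at least 2-fold lower than the Ctrl RIP (5.15%, background 7.11%) and 6 were at least 2-fold lower than the IgG RIP (6.19%, background 6.94%). No member was 2-fold higher than either, against backgrounds of 1.62% and 1.53%. Beyond the 4 called genes, the Ctrl RIP added Trim25, and the IgG RIP added Rnf113a2 and Trim32. Trim25, which ubiquitinates the RNA sensor RIG-I and itself binds RNA, read 9.56 and 9.32 in the Ctrl and MKRN1 inputs, 9.89 in the Ctrl RIP, 9.41 in the IgG RIP and 8.85 in the MKRN1-labelled RIP. Its difference was -1.04 from the Ctrl RIP, where its signal was highest, and -0.56 from the IgG RIP. Trim32 read 8.67 and 8.84 in the inputs, 8.69 in the Ctrl RIP, 9.07 in the IgG RIP and 8.03 in the MKRN1-labelled RIP. The MKRN1-labelled RIP was its lowest array and the IgG RIP its highest.

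**Figure D2:**
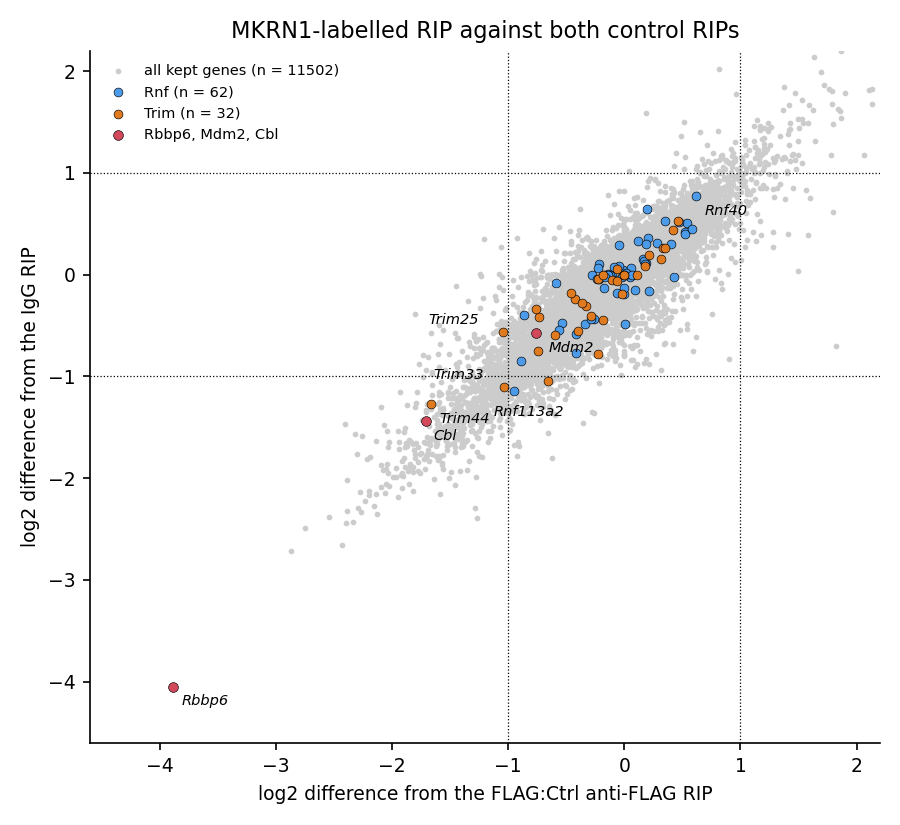
Log2 difference of the MKRN1-labelled RIP from the Ctrl RIP (x axis) and from the IgG RIP (y axis), 1 point per kept gene, with dotted lines at 2-fold. Members lie within the cloud of all 11502 genes except Rbbp6, at -3.88 and -4.05. The axes share 1 array, 23 genes lie outside the axes, and no member passes the dotted lines at the upper right.

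Rnf113a1 and Rnf113a2 encode near-copies of a spliceosome protein with a RING. Rnf113a2 read 10.11 and 9.94 in the Ctrl and MKRN1 inputs, 10.33 in the Ctrl RIP, 10.52 in the IgG RIP and 9.38 in the MKRN1-labelled RIP. Rnf113a1 read between 7.42 and 7.79 on the other 4 arrays and 7.63 in the MKRN1-labelled RIP, inside that range. The differences from the Ctrl RIP were -0.95 for Rnf113a2 and 0.21 for Rnf113a1. Signal could be split between such copies, and in the Trim cluster that holds Trim34a. Whether it was split here was not tested, so these values are uncertain.

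The 4 kept TRIM-NHL genes, whose C-terminal repeats can bind RNA, all read below both control RIPs, as did 44.4% of all kept genes. None was called. Their differences from the Ctrl and IgG RIPs were -0.66 and -1.04 for Trim32, -0.40 and -0.55 for Trim2 and -0.10 and -0.06 for Trim3. Trim71, a stem cell protein that represses mRNAs and is a target of let-7, read 8.01 in each input, 8.15 in the Ctrl RIP, 7.87 in the IgG RIP and 7.70 in the MKRN1-labelled RIP. The other 4 scalings kept all 4 below both control RIPs except centring on kept genes, under which Trim3 changed sign.

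Among the 7 kept ligases of histones and DNA damage none was called, and they moved in both directions. Rnf2, the catalytic RING1B subunit of Polycomb complex 1, read 10.13 in the Ctrl input and RIP, 10.07 in the MKRN1 input and the IgG RIP, and 9.60 in the MKRN1-labelled RIP. Rnf20 and Rnf40 form the heterodimer that ubiquitinates histone H2B. Rnf40 read 7.40 and 7.53 in the Ctrl and MKRN1 inputs, 7.53 in the Ctrl RIP, 7.38 in the IgG RIP and 8.15 in the MKRN1-labelled RIP, the highest score of any member at 0.62. Rnf20 read 9.05 and 8.88 in the inputs, 9.22 and 9.05 in the Ctrl and IgG RIPs and 9.04 in the MKRN1-labelled RIP, within the range of the other arrays. The partners thus differed by -0.18 for Rnf20 and 0.62 for Rnf40 from the Ctrl RIP. Rnf168, which extends ubiquitin marks at DNA breaks, stayed between 10.52 and 10.70 on all 5 arrays. Rnf4, the SUMO-targeted ligase, read 11.02 and 10.90 in the inputs and 11.35, 11.21 and 11.19 in the Ctrl, IgG and MKRN1-labelled RIPs. Rnf8 is not a member because its probe set is shared with another gene.

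Of the 6 kept signalling ligases Cbl alone was called. Rnf111, the Arkadia ligase that promotes Nodal and TGF-beta signalling, read 8.85 and 8.73 in the Ctrl and MKRN1 inputs, 8.77 in the Ctrl RIP, 8.73 in the IgG RIP and 7.88 in the MKRN1-labelled RIP. At -0.89 and -0.85 from the control RIPs it lay short of 2-fold, and at the 2-fold threshold it was called only with arrays centred on all probe sets. Rnf146, which reads poly-ADP-ribose on axin in Wnt signalling, read 7.94 in the Ctrl and MKRN1-labelled RIPs, with 8.08 in the IgG RIP. The dimmer probe set of Rnf146 read 6.16 in the Ctrl RIP, 6.32 in the IgG RIP and 6.87 in the MKRN1-labelled RIP. Rnf41 lay at -0.02 from both control RIPs. Rnf17, a germline Tudor protein, lay at -0.87 from the Ctrl RIP, -0.40 from the IgG RIP and 0.02 from its input.

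Of the 5 members with more than 1 probe set, only Rbbp6 was called by any of them. The dimmer probe set of Rnf26 had a score of -0.57 where the brighter one had 0.00. The scores were -0.24 and 0.00 for the dimmer and brighter probe sets of Rnf141, and 0.00 and -0.07 for those of Rnf213. The brightest probe set was therefore not always the one with the larger difference.

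**Figure D3:**
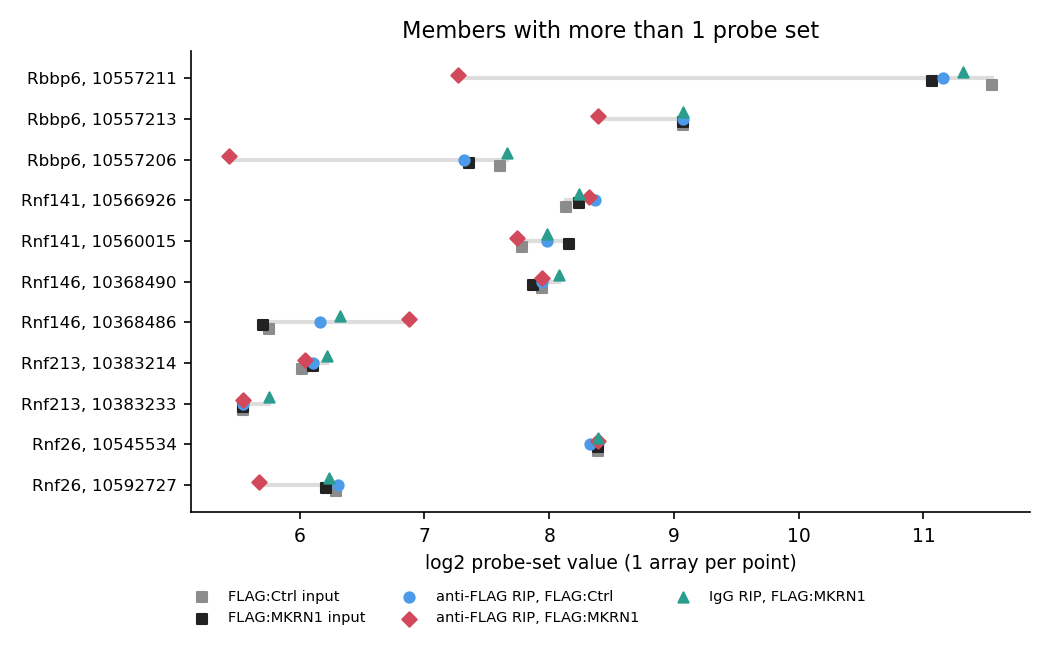
Log2 signal on the x axis for every probe set of the 5 members with more than 1, with 1 point per array and the probe-set identifiers as row labels. The MKRN1-labelled RIP is lowest in all 3 probe sets of Rbbp6, at 7.27, 8.39 and 5.44, and highest, at 6.87, in the dimmer probe set of Rnf146.

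The innate immune group, Trim and Rnf ligases of antiviral and interferon signalling, had 8 kept genes of 15 and no call. All 8 read below the Ctrl RIP, with a median of -0.24, and 5 read below the IgG RIP, where 52.3% and 50.1% of all kept genes did so. The same 8 genes read above their input in the Ctrl RIP, with a median of 0.14, as did 51.4% of all kept genes. Both counts rest on the same Ctrl RIP array. The count below the Ctrl RIP was 8 with centring on all probe sets, 7 after quantile normalization or trend removal and 6 with centring on kept genes. Trim25 and Trim34a had the largest differences from the Ctrl RIP, -1.04 and -0.76. Trim21, the cytosolic antibody receptor, read 6.33 and 6.97 in the Ctrl and MKRN1 inputs, 7.07 and 7.33 in the Ctrl and IgG RIPs and 6.88 in the MKRN1-labelled RIP. Its lowest array was thus the Ctrl input and not a RIP.

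None of the 17 kept membrane ligases, which act in the endoplasmic reticulum, endosomes or mitochondria, was called. Their median was -0.02 from the Ctrl RIP and -0.05 from the IgG RIP. Rnf5, an endoplasmic reticulum ligase of protein quality control, read 9.38 and 9.19 in the Ctrl and MKRN1 inputs and 8.58, 8.74 and 8.16 in the Ctrl, IgG and MKRN1-labelled RIPs. All 3 RIPs of Rnf5 were thus below both inputs. Rnf13, an endosomal ligase, lay at -0.42 and -0.77 from the Ctrl and IgG RIPs. Trim13 and Trim59, Trim proteins with a membrane anchor, lay at -0.23 and -0.78 and at -0.02 and -0.19.

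The RING-between-RING group had 6 kept genes and no call. Rnf14, Rnf19a and Rnf144a had the largest differences from the Ctrl RIP, at 0.28, -0.29 and -0.26. Rnf31, the catalytic HOIP subunit of the complex that builds linear ubiquitin chains, read 7.67 on 4 arrays and 7.81 in the Ctrl RIP. Rnf216 read 8.10 on all 5 arrays, equal within 1e-06, and so did Trim63, a muscle ligase, at 6.56. Such fixed values were held by 2 of 97 members (2.06%) and by 167 of 11502 kept genes (1.45%). They carry no difference to read, and how the authors' processing produced them is not given in the sources used here.

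Rnf7, the RING subunit RBX2 of cullin ligases, had the brightest signal among members, with 12.91 and 12.99 in the inputs and 13.18, 13.26 and 13.36 in the Ctrl, IgG and MKRN1-labelled RIPs. The dimmest were Rnf180, Rnf224, Rnf207, Rnf215 and Trim36, with means of 5.76 to 5.83. Signals of different probe sets do not rank genes by RNA amount. Just above the filter stood Rnf180 at 5.76, Rnf224 at 5.78 and Rnf207 at 5.81, and just below it Trim66 at 5.75, Rnf135 at 5.72 and Rnf144b at 5.72. The MKRN1-labelled RIP entered that mean, and Rnf180, Rnf224 and Rnf207, 3 members in all, were kept only with it; their means over the other 4 arrays were 5.74, 5.74 and 5.73. Trim36 alone read below the filter in that RIP, at 5.60.

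At the upper end no member reached 2-fold. After Rnf40 came Rnf115, a ligase that binds the endosomal GTPase Rab7, with 9.93 and 10.09 in the Ctrl and MKRN1 inputs, 10.08 and 10.11 in the Ctrl and IgG RIPs and 10.62 in the MKRN1-labelled RIP. Rnf126, its close relative in cytosolic quality control, read 8.77 and 8.33 in the inputs, 8.35 and 8.30 in the Ctrl and IgG RIPs and 8.83 in the MKRN1-labelled RIP. The MKRN1-labelled RIP was the highest array for both, although the Ctrl input of Rnf126 lay close to it. Rnf227 and Rnf223, with differences of 0.59 and 0.52 from the Ctrl RIP, were dim, with means of 5.97 and 6.25. Rnf207 also lay at 0.52, but it passed the filter only through the MKRN1-labelled RIP, so that difference is set by the filter. Rnf39 read 6.30 and 6.22 in the Ctrl and MKRN1 inputs, 6.22 and 6.04 in the Ctrl and IgG RIPs and 6.57 in the MKRN1-labelled RIP.

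Compared with the input of its lysate, the MKRN1-labelled RIP was at least 2-fold lower for 6 members (6.19%, background 5.51%) and at least 2-fold higher for 1 (1.03%, background 2.47%). The 6 were the 4 called genes with Rnf5 at -1.03 and Trim34a at -1.05. Trim34a read 6.51 and 6.88 in the Ctrl and MKRN1 inputs and 6.58, 6.16 and 5.82 in the Ctrl, IgG and MKRN1-labelled RIPs. The higher one was Trim8, a ligase of cytokine signalling, at 1.29. Its values were 6.63 in the Ctrl input, 5.87 in the MKRN1 input, 6.69 and 6.63 in the Ctrl and IgG RIPs and 7.16 in the MKRN1-labelled RIP. The MKRN1 input was its single low array, and the difference from the control RIPs was 0.46 and 0.53. Next highest above input were Trim68 at 0.63, Rnf40 at 0.62 and Rnf10 at 0.54. Trim68 read 6.14 and 5.94 in the Ctrl and MKRN1 inputs and 6.36, 6.38 and 6.57 in the Ctrl, IgG and MKRN1-labelled RIPs. Rnf10 read 9.41 and 8.93 in the inputs and 9.51, 9.42 and 9.47 in the same RIPs, so that its low array was the MKRN1 input.

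The control RIPs lay close to their inputs for these genes. Between each control RIP and its input no member differed by 2-fold. Of kept genes 0.374% were lower and 0.948% higher in the Ctrl RIP, and in the IgG RIP 0.461% and 1.32%. The member medians were 0.06 for the Ctrl RIP and 0.00 for the IgG RIP. Rnf5 was lowest in the Ctrl RIP relative to input, at -0.80, followed by Rnf208 at -0.79, and Trim21 was highest at 0.74. Rnf130, Rnf32, Trim27 and Rnf25 followed at 0.57, 0.50, 0.49 and 0.46. Rnf130, an endosomal ligase, read 8.17 and 8.58 in the Ctrl and MKRN1 inputs and 8.74, 9.24 and 8.75 in the Ctrl, IgG and MKRN1-labelled RIPs, all above the inputs. Rnf32 read 6.78, 6.56, 7.28, 6.78 and 6.69 in the same order, with the Ctrl RIP as its 1 high array. Rnf170, an endoplasmic reticulum ligase of inositol trisphosphate receptors, was lowest in the IgG RIP relative to input, at -0.97. It read 7.27 in the Ctrl input, 8.26 in the MKRN1 input, 6.84 in the Ctrl RIP, 7.29 in the IgG RIP and 7.27 in the MKRN1-labelled RIP. Its 1 high array was the MKRN1 input.

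Between the inputs 1 member was at least 2-fold lower in FLAG:MKRN1 cells (1.03%, background 0.791%) and none was 2-fold higher (background 0.878%). That member was Rnf6, which read 7.97 in the Ctrl input, 6.70 in the MKRN1 input, 7.51 and 7.49 in the Ctrl and IgG RIPs and 6.95 in the MKRN1-labelled RIP. The IgG RIP of the same FLAG:MKRN1 lysate was thus 0.78 above that input. Trim26 lay at -0.58, with 7.35 and 6.78 in the Ctrl and MKRN1 inputs. Rnf170 was the highest in this comparison at 0.99. Some markers of cell state differed between these inputs as well. Of 10 stem cell markers 6 were lower and 3 higher in the MKRN1 input, from -1.17 for Klf4 to 0.14 for Sox2, with a median of -0.07. The 5 primitive endoderm markers ran from -1.75 for Dab2 to 0.04 for Gata4 (4 lower), the 4 early mesoderm and neural markers from -0.71 for Mixl1 to 1.16 for Pax6 (1 lower, 2 higher), and the 10 feeder markers from -0.99 for Thy1 to 0.11 for Dcn (5 lower, 2 higher). Their part in the Rnf6 value was not tested. In the inputs, fewer cells with a transcript and less RNA per cell cannot be told apart.

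The difference in the MKRN1-labelled RIP moved with signal level, in members and in all genes. Members with an input mean under 7 numbered 33, with a median of 0.05 from the Ctrl RIP. From 7 to 9 there were 40, with a median of -0.10, and at 9 or more there were 24, with a median of -0.28. All kept genes had 0.09, -0.14 and -0.33 in the same bands. None of 33, 1 of 40 and 3 of 24 members of the bands were called lower. Of all kept genes, 18 of 4243, 260 of 4332 and 339 of 2927 were. The member counts include Cbl and Rbbp6, which were added with their values known. Across the 97 members Pearson's r with the input mean was -0.39 for the difference from the Ctrl RIP, and -0.32 without Rbbp6, beside -0.33 across all kept genes. Genes are not independent replicates, and the points share their arrays. The part of signal level in the calls above was not tested beyond removing its trend, after which 3 of the 4, Cbl, Rbbp6 and Trim44, were still called.

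**Figure D4:**
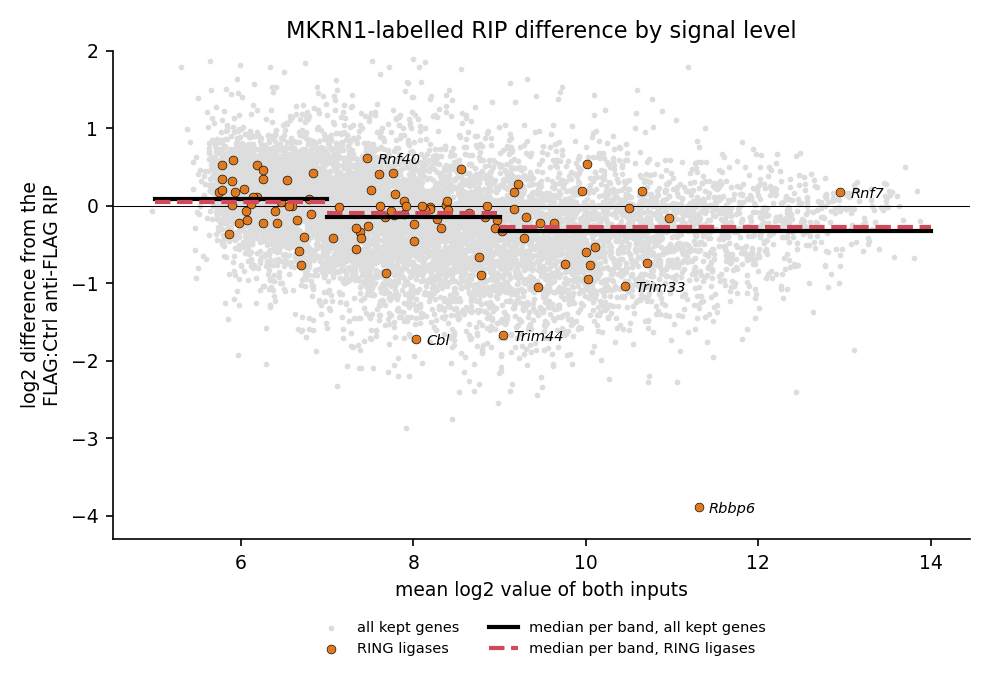
Log2 difference of the MKRN1-labelled RIP from the Ctrl RIP (y axis) by mean log2 signal of both inputs (x axis), for members and all kept genes, with 27 genes outside the y axis. The band medians of members, 0.05, -0.10 and -0.28, lie near those of all kept genes, 0.09, -0.14 and -0.33.

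Trim and Rnf members were compared because they make up nearly the whole set. The Trim median was -0.21 from the Ctrl RIP and -0.18 from the IgG RIP, with 22 of 32 (68.8%) and 20 of 32 (62.5%) genes below 0. The Rnf median was -0.02 and 0.00, with 32 (51.6%) and 26 (41.9%) of 62 genes below 0. Of all kept genes 52.3% and 50.1% were below 0. The Trim genes had the dimmer inputs, with a median of 6.83 against 7.84. The Trim median stayed below the Rnf median under all 5 scalings, whereas the Rnf median changed sign between them, from -0.22 to 0.15. The difference was not tested.

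The MKRN1-labelled RIP was alone the lowest array for 26 members (26.8%) and alone the highest for 24 (24.7%). Over all kept genes these shares were 32.6% and 29.5%. Of the members 15 spanned 1 or more on the log2 scale over the 5 arrays (15.5%, against 17.5% of kept genes), and 24 spanned less than 0.25 (24.7%, against 19.2%). The other 58 lay between, and these shares say nothing particular to the members.

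Other genes of ubiquitin and ubiquitin-like pathways were counted from lists set by name or function. The counts are to be read beside the 5.36% of all kept genes called lower. The genes taken by the symbol prefix Ube2 had no call in either direction among 29 kept, with a median of -0.13 from the Ctrl RIP. Most, but not all, are conjugating enzymes, and Ube2cbp is an example of a gene that the prefix took in and that is not. Of 5 kept E1-type genes, Atg7, Nae1, Sae1, Uba3 and Uba6, Uba6 was called lower. The others of that list serve ubiquitin-like proteins in place of ubiquitin. The HECT ligases, which take ubiquitin onto themselves, had 5 of 20 called lower, among them Itch, Huwe1 and Ube3c with scores of -1.21, -1.06 and -1.37. Cullins and their adaptors had 1 of 20, Cul4b, with a score of -1.30. The anaphase-promoting complex had 5 of 16, among them Anapc1 with 9.52 and 9.83 in the Ctrl and MKRN1 inputs, 9.65 and 9.72 in the Ctrl and IgG RIPs and 7.83 in the MKRN1-labelled RIP.

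The Usp deubiquitinases, which remove ubiquitin, had 9 of 42 called lower, with Usp9x at a score of -2.13. RING ligases outside the Rnf and Trim series had 8 of 62 called lower, among them Brca1, Rad18, Rlim and Birc6 with scores of -1.40, -1.62, -1.32 and -1.38. Rlim, formerly Rnf12, acts in X-chromosome inactivation. The medians from the Ctrl RIP were -0.47 for E1, -0.43 for HECT, -0.44 for cullin genes, -0.33 for the anaphase-promoting complex, -0.60 for Usp and -0.37 for other RING ligases. No gene of these lists was called higher. The makorins Mkrn1, Mkrn2 and Mkrn3 had no call, with -0.30, -0.10 and 0.06 from the Ctrl RIP. The input medians of the lists, 9.69 for E1, 8.94 for E2, 8.31 for HECT, 10.0 for cullin genes, 9.20 for the anaphase-promoting complex, 8.27 for Usp and 8.21 for other RING ligases, were all above the 7.77 of the Rnf and Trim set. The part of that gap in the counts was not tested.

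**Figure D5:**
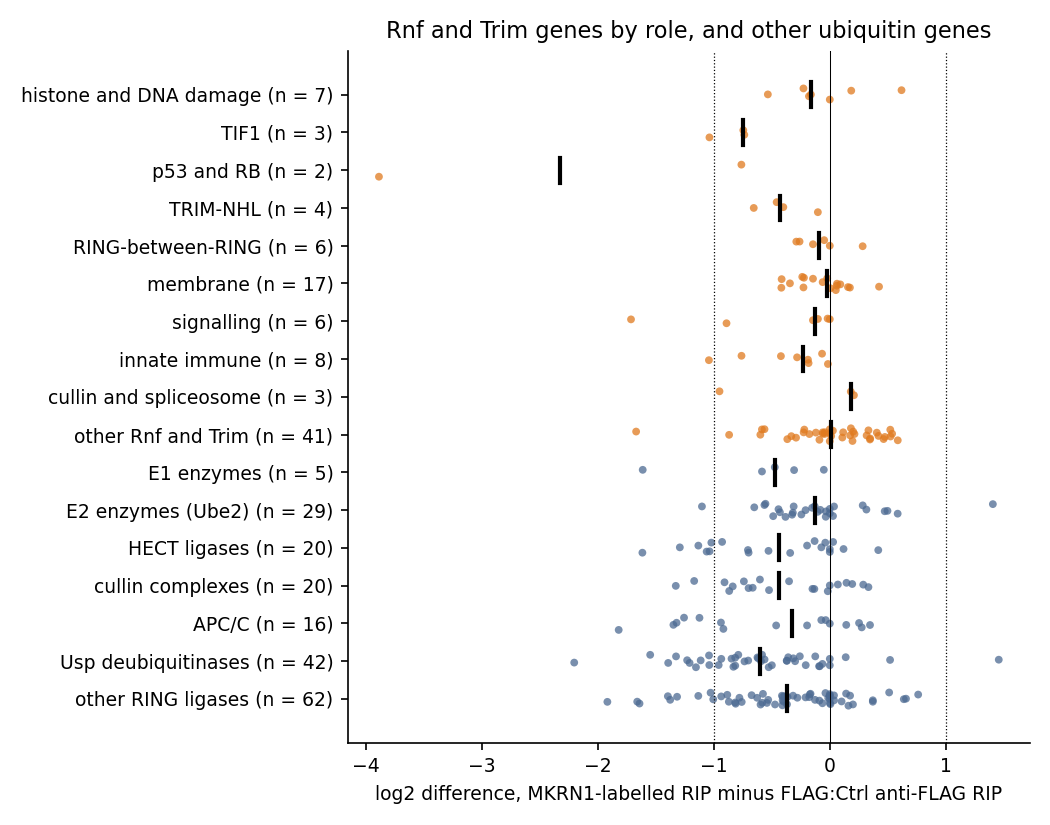
Log2 difference of the MKRN1-labelled RIP from the Ctrl RIP (x axis) for each kept gene by role. Members are in orange and other genes of ubiquitin and ubiquitin-like pathways in blue. Black bars mark the group medians and dotted lines 2-fold. The TIF1 median lies at -0.75 and the Usp median at -0.60, and no member lies beyond 2-fold on the right.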

How the data were processed

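RNA from 5 samples, 1 array each, carried a biotin label added by the usual Affymetrix protocol, per the labels. The deposited table of the authors gives each probe set a single log2 value on each array (scale read from the values). How the background was corrected and the probes summarised and normalized, and on which genome build, is not given in the sources used here, so no coordinates are printed. Of 34760 probe sets, 21640 had 1 gene symbol, 1321 had several and 11799 had none in the platform annotation; 9 probe sets shared by several genes were left out of the members. All 142 symbols matched RefSeq. Differences of log2 values were taken without further scaling (Python 3.11.15, pandas 2.3.3, numpy 2.4.6, statsmodels 0.14.6). With 1 array per group no test was run. Members, lists and tests were chosen with earlier results of these data known. The rule for named genes took those called, the 3 added by name, the 5 highest and lowest members per comparison, the brightest and dimmest, those next to the filter, up to 4 per role or pathway list, and those with disagreeing probe sets. Rnf20, Rnf113a1, Rnf4 and Rnf168 and the other members described beside them were chosen after their values were seen. Alternatives covered scaling, signal trend, probe-set choice, level filter, threshold, control and use of input. Centring on kept genes was added after seeing the data. A planned description of protein length and RING pattern was not done, as no protein table was used here.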

Additional observations from a re-analysis of the deposited data

Results flagged for a closer look

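For 9 of 97 members the anti-FLAG RIP lay on opposite sides of its input in the FLAG:MKRN1 and FLAG:Ctrl lines, each time by more than 0.243, the SD across kept genes of the difference between the control RIPs. The share, 9.28%, is close to the 9.04% of all kept genes. With 1 array per group the differences between the lines were not tested. Rnf126 lay at 0.49 in the FLAG:MKRN1 line and at -0.42 in the FLAG:Ctrl line. Rnf181 lay at 0.25 and -0.65, and Rnf208 at 0.25 and -0.79, in that order. The other 6 were lower than input in the FLAG:MKRN1 line. Rnf149 lay at -0.41 and 0.34, Rnf157 at -0.35 and 0.30, and Rnf169 at -0.25 and 0.28. Trim13 lay at -0.43 and 0.25, Trim25 at -0.47 and 0.33, and Trim28 at -0.37 and 0.37.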

How the results depend on the processing

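The count of members called lower, 4, became 9 at 1.5-fold (background 14.4%) and 1, Rbbp6, at 4-fold (background 0.2%), and the count called higher, 0, became 1, Rnf40, at 1.5-fold (background 4.76%). Elsewhere 3 to 6 members were called lower and none higher. Centring arrays on all probe sets gave 6 (background 8.42%), and quantile normalization, removal of the level trend and centring on kept genes gave 3 each (backgrounds 3.61%, 2.81% and 3.52%), without Trim33. The filter at the 75th percentile gave 3 of 51 members (5.88%, background 9.05%), since it left out Cbl. Members 2-fold apart between the inputs, 1, became 2 with the trend removed, 2 with centring on kept genes and 0 at the 75th percentile. Members 2-fold from input in the control RIPs, 0, became 1 with the trend removed and 1 with centring on kept genes. For these comparisons the shares of all kept genes were not counted under the other settings, so nothing is read from the changes. Scaling moved the median of all kept genes against the FLAG:Ctrl RIP between -0.23 and 0.14, and that of members between -0.27 and 0.10. Of 3171 values compared for 53 named members, 110 moved by more than 0.243 and none called changed sign. The level filters leave a gene's values unchanged, and the centrings shift each difference by less than 0.243. Those settings could therefore not move a value that far, and the 110 of 3171 is no measure of stability. With the trend removed 64 moved and 307 did not. After quantile normalization 39 moved and 332 did not, and with the median over probe sets 7 and 364. The cause was not tested. No paired analysis was possible because each group holds 1 array. Leaving out an array was not possible for the same reason. Dim probe sets near the level filter limit what can be read of the lowest members.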
